A study of Homo sapiens with 4 samples.

Results

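Imprinted genes are expressed from only 1 parental copy. In the germ line, DNA methylation marks 1 parental copy of a short CpG-rich control region. This methylation survives the reprogramming of the early embryo through ZFP57, a KRAB zinc finger protein. ZFP57 binds the methylated hexamer TGCCGC and recruits KAP1 and the H3K9 methyltransferase SETDB1. Trimethylation of histone H4 at lysine 20 (H4K20me3), which is laid down by SUV420H enzymes downstream of H3K9me3, is known on the methylated, silent copy of several such regions. At H19 the unmethylated copy is instead bound by CTCF, which insulates IGF2 from enhancers that lie beyond H19.

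The 10 imprinted genes H19, KCNQ1OT1, MEST, PEG10, SNRPN, GNAS, PLAGL1, L3MBTL1, NAP1L5 and GRB10 were examined, of 38865 coding and lncRNA genes in the annotation. They were chosen by name and not by a measurement, though with earlier results of these data known. A region was counted for a gene when at least 1 base of it lay in the window of the gene. The window is the gene body and the 5 kb on either side of each annotated transcript start. H4K20me3 was mapped by chromatin immunoprecipitation and sequencing in IMR90, an established line of normal diploid fibroblasts from human lung that stops dividing after enough passages. The states were PRO (cells still proliferating, at population doubling 32) and RS (cells in replicative senescence, at population doubling 86), grown in the same reduced-oxygen culture with no other treatment. Each state had 2 samples, 1 for each of 2 H4K20me3 antibodies, from Millipore and Cell Signaling Technology. The authors kept the stretches called with both antibodies, so each state had 1 merged list of peaks (2836 for PRO, 35535 for RS). A further list, of 18711 regions that differed between the states by DiffBind, gave no direction and no score. The study describes more differential regions than the copy analysed here holds, so a peak without a DiffBind region in it may still have been called different.

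The lists held positions only. They gave no read count, peak height or value per sample, so no spread between replicates and no test was available for any comparison made here, and the number of reads behind a peak is unknown. Read totals per library are given by the study and were not used here. Reads were not separated by parental copy, so a peak cannot be assigned to the silent or the active copy. The absence of a peak means that no domain was called with both antibodies. The study reports that peaks of the antibodies overlapped to a much greater extent in RS than in PRO cells. How far this shaped the difference between the PRO and RS lists was not tested. In total PRO peaks covered 0.12% of the genome, RS peaks 1.33% and DiffBind regions 1.21%. All coordinates are hg19 (GRCh37), counted from 1, with GENCODE release 44 gene models lifted to that build.

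RS peaks at H19 covered part of the stretch that holds its CTCF sites. The CTCF consensus searched was CCGC, any 2 bases, then GGNGGCAG, where N is any base, on both strands. It occurred 5 times in the H19 window, 2.13 to 5.19 kb upstream of the commonest H19 start, which is the start that the most transcripts share to within 50 bases. The 5 sites are listed from upstream to downstream because they mark where the control region lies relative to the peaks. Each is given 5′ to 3′ on the minus strand, the strand of H19, with the consensus in capitals.
H19 site 1, chr11:2024236-2024275: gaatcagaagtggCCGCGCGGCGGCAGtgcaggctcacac
H19 site 2, chr11:2023831-2023870: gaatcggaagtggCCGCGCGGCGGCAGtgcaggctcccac
H19 site 3, chr11:2023430-2023469: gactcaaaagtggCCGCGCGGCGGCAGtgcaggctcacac
H19 site 4, chr11:2021997-2022036: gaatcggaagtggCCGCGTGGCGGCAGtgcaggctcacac
H19 site 5, chr11:2021185-2021224: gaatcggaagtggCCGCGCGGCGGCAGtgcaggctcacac

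The capitals of each of these 5 sites overlap 1 copy of TGCCGC, read on the opposite strand as GCGGCA, so the searches for both factors share these bases. A match is a description of the letters and does not show that either factor was bound.

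Another 3 control regions, which carried no peak in any list, are shown beside H19, each as a stretch of 150 bases around a cluster of ZFP57 hexamers. Such hexamers also lay at H19, where the DiffBind region of 4001 bp held 10 copies. They are printed on the strand of the gene, and the capitals mark TGCCGC or its reverse complement GCGGCA. The KCNQ1OT1 and MEST stretches lie at the CpG island of a start, and the GRB10 stretch lies in an island 10.0 to 11.6 kb downstream of the commonest start.
KCNQ1OT1, chr11:2720608-2720757, minus strand: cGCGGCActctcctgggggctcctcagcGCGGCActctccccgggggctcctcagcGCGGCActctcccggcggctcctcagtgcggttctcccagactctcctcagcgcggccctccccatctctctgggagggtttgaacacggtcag
MEST, chr7:130131848-130131997, plus strand: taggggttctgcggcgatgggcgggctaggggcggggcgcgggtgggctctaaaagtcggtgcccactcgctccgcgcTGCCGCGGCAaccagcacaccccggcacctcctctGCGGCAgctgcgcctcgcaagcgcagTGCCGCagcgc
GRB10, chr7:50849832-50849981, minus strand: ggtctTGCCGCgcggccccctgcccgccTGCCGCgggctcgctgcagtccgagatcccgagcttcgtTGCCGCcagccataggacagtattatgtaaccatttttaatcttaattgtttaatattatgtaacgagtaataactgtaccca

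No PRO peak lay in the window of any of the 10 genes, whereas 5 of the 10 windows held an RS peak. Across all genes, 3.83% had a PRO peak in the window and 22% had an RS peak. At so low a PRO share, 0 of 10 is a count that does not set these genes apart. The 17 RS peaks were spread unevenly, with 10 in KCNQ1OT1, 3 in H19, 2 in L3MBTL1 and 1 each in SNRPN and GRB10. DiffBind regions lay in 4 of the 10 windows, against 18.2% of all genes, with 2 each in H19, KCNQ1OT1 and L3MBTL1 and 1 in GRB10. Each of the 7 DiffBind regions overlapped an RS peak, and 8 of the 17 RS peaks overlapped a DiffBind region. MEST, PEG10, GNAS, PLAGL1 and NAP1L5 held no region of any list.

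Long windows are more likely to hold a peak by their length. Of the 4 genes with windows under 50 kb (H19, MEST, PEG10 and NAP1L5) only H19 held an RS peak, where 12.6% of all genes of that length did. Of the 2 genes from 50 to 100 kb, L3MBTL1 held RS peaks and GNAS did not, and the share over all such genes was 31.5%. Of the 4 genes at or above 100 kb, KCNQ1OT1, SNRPN and GRB10 held RS peaks and PLAGL1 did not, and the share over all such genes was 62.8%. With this few genes in a length class, the counts do not set the imprinted genes apart from other genes.

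RS peaks covered 24.9 kb, or 3.03%, of the 823 kb in the 10 windows. KCNQ1OT1 supplied 69.8% of the covered bases, and without it the share fell to 1.05%, below the 1.33% of the genome. DiffBind regions covered 16.5 kb, or 2.01%, and 1.41% without KCNQ1OT1. Most of the RS coverage of the group thus lay in KCNQ1OT1, whereas KCNQ1OT1 and H19 held near equal DiffBind lengths, 6.40 and 6.18 kb, and the DiffBind share without KCNQ1OT1 was above the 1.21% of the genome. Of the 10 genes, H19 had the highest covered share of its own window, with 19.7% in RS peaks and 33.8% in DiffBind regions.

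**Figure D1:**
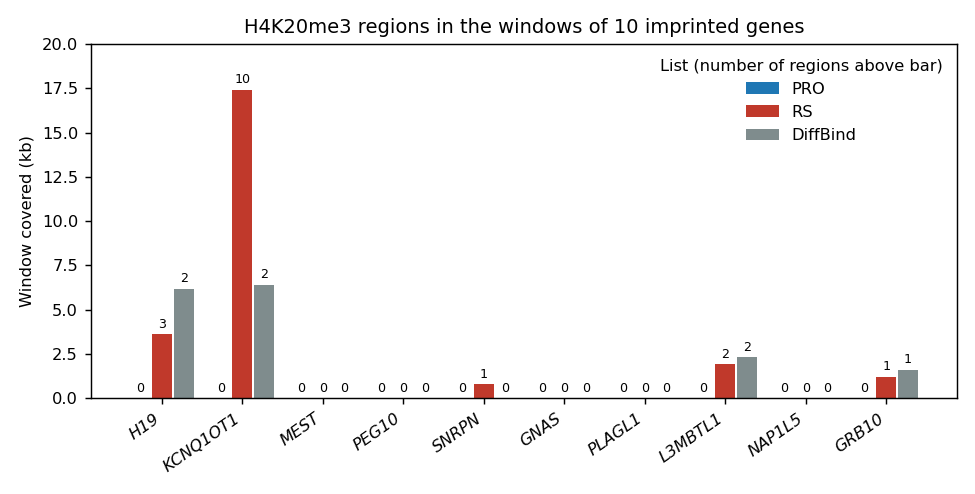
Kilobases of each imprinted gene's window covered by PRO peaks, RS peaks and DiffBind regions, with the number of regions above each bar. All PRO bars are at 0, KCNQ1OT1 has 17.4 kb in RS peaks, and 5 genes have no bar.

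Within 5 kb of a transcript start, 3 of the 10 genes had an RS peak (H19, L3MBTL1 and GRB10) and the same 3 had a DiffBind region, while none had a PRO peak. Over all genes these shares were 11.2%, 9.07% and 2.51%, in that order. The shares were not matched for the number of annotated starts, which widens the stretch searched, so they are not directly comparable. H19, L3MBTL1 and GRB10 have 24, 32 and 25 distinct starts, while GNAS, with 59, held no region. The peaks of KCNQ1OT1 and SNRPN lay further away, in the gene bodies.

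H19, a maternally expressed lncRNA, held RS peaks over part of its upstream control region. It held no PRO peak, and the nearest one was 572 kb from the window. The RS peak at chr11:2021401-2023401 spanned 2.33 to 4.33 kb upstream of the commonest start. A shorter one at chr11:2023801-2024201 lay 4.73 to 5.13 kb upstream. Both were inside the single DiffBind region at chr11:2020801-2024801, which was 4001 bp long. The remaining RS peak, at chr11:2028801-2030001, lay 3.02 kb upstream of the outermost H19 start and overlapped a DiffBind region of 2201 bp.

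All 5 CTCF consensus sites were inside the DiffBind region, 2 of them (sites 2 and 4) were inside RS peaks, and none was in a PRO peak. Sites 1, 3 and 5 lay outside the RS peaks, 48, 42 and 190 bases from the nearest edge. No RS domain was called with both antibodies at these sites. Of the 18711 DiffBind regions, 46 (0.246%) held at least 1 match and 2 held at least 2 matches. The H19 region was the only one with 3 or more. Its 5 sites are near-identical in sequence, so this count describes the letters of the region and not the mark. Clusters of matches outside the lists were not counted. Of the 906 matches in the genome, 52 (5.74%) were in DiffBind regions, 50 (5.52%) in RS peaks and 6 (0.662%) in PRO peaks.

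**Figure D2:**
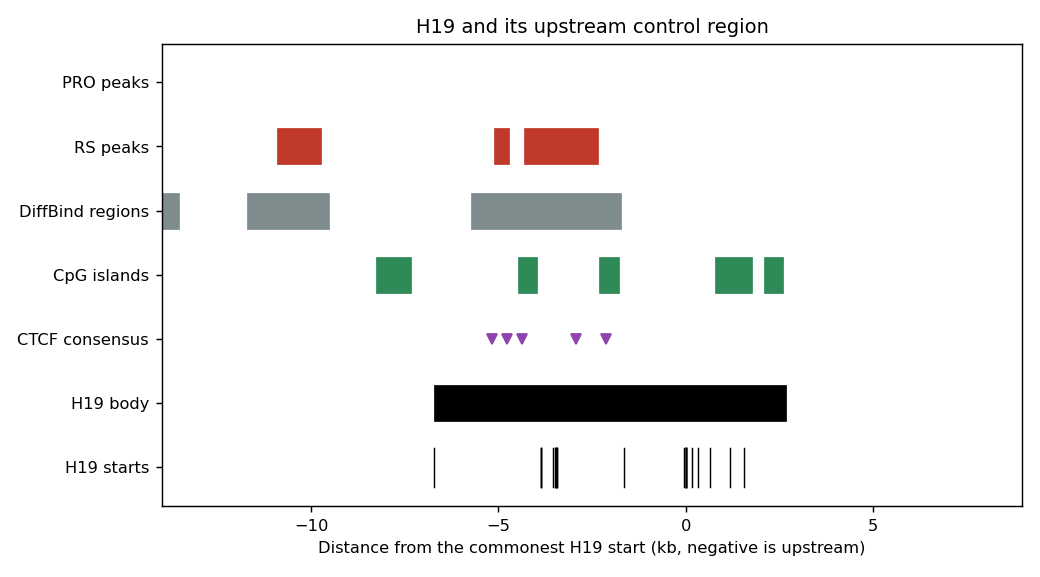
Positions of peaks, DiffBind regions, CpG islands and CTCF consensus matches along H19, in kilobases from its commonest start, with the gene body and annotated starts below. The 5 matches fall inside the longer DiffBind region, 2 of them inside RS peaks, and the PRO track is empty.

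The longer isoforms of H19 in the annotation run across the control region, so the longest RS peak there also held 11 annotated starts and is listed as exon and intron. These 11 starts are not the commonest one, and the body of the shorter, abundant form downstream of it held no peak. The H19 peaks were rich in CpG for this mark. The observed number of CpG dinucleotides over the number its base composition predicts (CpG observed/expected) was 0.460, 0.502 and 0.414 in the 3 RS peaks, and 90.7%, 93.1% and 87.2% of all RS peaks were at or below these values.

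KCNQ1OT1, the paternally expressed antisense transcript that silences KCNQ1 and its neighbours in cis, held RS peaks in part of its body. None lay at its promoter. Its start lies in a CpG island at chr11:2720068-2722210, the control region of the domain, which was 34.3 kb from the nearest RS peak and 25.6 kb from the nearest DiffBind region. The island held 6 copies of TGCCGC. The first 20 kb of the transcript held no region of any list. The next 20 kb was 20% covered by RS peaks and the stretch from 40 to 60 kb was 45.9% covered. Cover was then 14.2% from 60 to 80 kb and 6.18% over the remaining 22.7 kb.

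The 10 RS peaks lay 35.4 to 100.4 kb from the start. The longest, at chr11:2671601-2677801, was 6201 bp and overlapped no DiffBind region. The next, at chr11:2681801-2685801, was 4001 bp and lay inside a DiffBind region of 5401 bp at chr11:2681601-2687001. The other DiffBind region, of 1001 bp, overlapped an RS peak of 401 bp 51.6 kb from the start, and the remaining 8 RS peaks overlapped none.

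**Figure D3:**
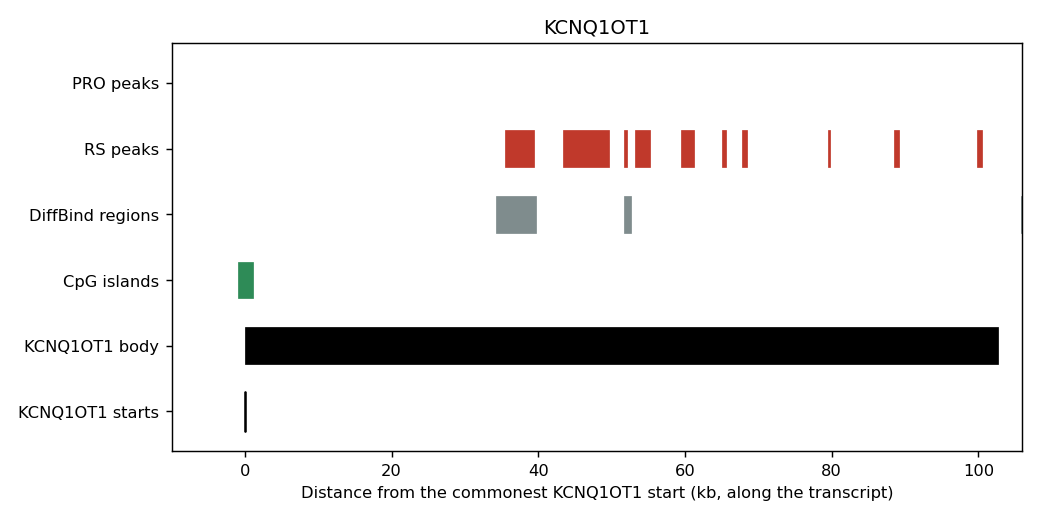
Peaks, DiffBind regions and the CpG island along KCNQ1OT1, in kilobases from its commonest start in the direction of transcription. RS peaks begin 35.4 kb into the transcript, none lies at the island of the start, and the PRO track is empty.

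KCNQ1OT1 lies inside KCNQ1, a potassium channel gene transcribed from the opposite strand, so these peaks belong to both genes. Of the 10 peaks, 9 lay in KCNQ1 introns and the peak at chr11:2681801-2685801 also touched a KCNQ1 exon. RS peaks covered 16.95% of the stretch shared with KCNQ1OT1 and 1.79% of the other 302 kb of the KCNQ1 body. For DiffBind regions these shares were 6.23% and 4.71%, so the contrast between the shared stretch and the rest was larger in the RS list than in the DiffBind list. Some of this stretch recurs in the genome. In 1 peak of 601 bp, at chr11:2655601-2656201, 30.5% of 75-base windows had another copy elsewhere, against 6.11% or less in the other 9, and its part in the call was not tested.

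SNRPN, which encodes a splicing protein of neurons and heart and whose promoter island is the control centre of the Prader-Willi domain, held 1 RS peak of 801 bp at chr15:25177401-25178201. It lay in an intron, 21.9 to 22.7 kb upstream of the commonest start, and overlapped no DiffBind region. The promoter island at chr15:25199922-25201413, with 3 copies of TGCCGC, held no region, and the nearest PRO peak was 460 kb from the window.

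The transcript that begins at SNRPN continues as SNHG14, the host of the SNORD116 and SNORD115 small nucleolar RNA arrays, and the RS list was dense there. The SNORD116 array, 72.8 kb beyond the end of SNRPN, was 70.6% covered by 3 RS peaks. The longest of them, at chr15:25295201-25332601, was 37401 bp, and 19 of the 25 annotated copies lay in a peak. The SNORD115 array was 32.9% covered by 27 shorter RS peaks, with 14 of 44 copies in a peak. Of these 27 peaks, 1 is a single base, at chr15:25496001. The rest of SNHG14 was 0.989% covered. Neither array held a PRO peak, nor a DiffBind region in the copy of that list analysed here. The share of 75-base windows with another copy in the genome was 1.24% in the SNORD116 array and 3.2% in the SNORD115 array. What part the tandem copies have in the calls was not tested.

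**Figure D4:**
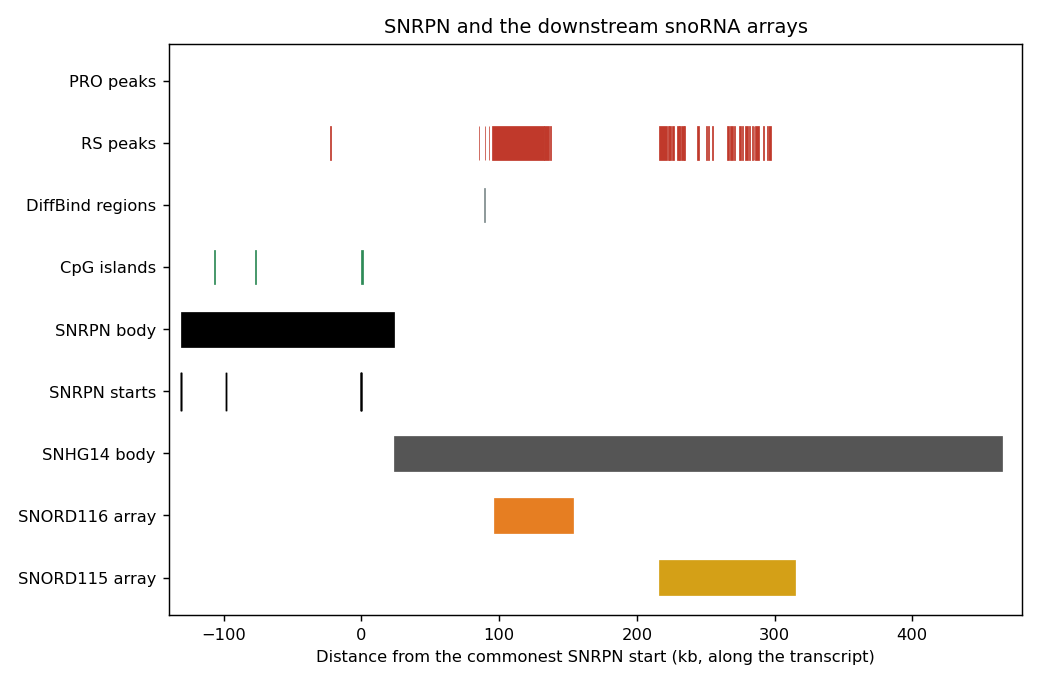
Peaks and DiffBind regions along SNRPN and SNHG14, in kilobases from the commonest SNRPN start, with CpG islands and both snoRNA arrays. RS peaks fill 70.6% of the SNORD116 array and 32.9% of the SNORD115 array, whereas the SNRPN body holds 1 peak.

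L3MBTL1, a reader of lower methylation states of H4K20 and of other histone lysines, held 2 RS peaks. The first, at chr20:42112201-42114001, lay upstream, 4.08 kb from the outermost start, in the body of an overlapping gene known only by the identifier ENSG00000288000. The second, at chr20:42176001-42177001, lay near the end of the gene over exon and intron, and also in ENSG00000277611. Each overlapped a DiffBind region, of 2001 and 1201 bp. The islands at its starts were 21.6 and 29.1 kb from the nearest RS peak.

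GRB10, an adaptor that dampens insulin receptor signalling and whose parental expression differs between tissues, held 1 RS peak of 1201 bp at chr7:50855201-50856401. It lay in an intron, 4.73 to 5.93 kb downstream of the commonest start, inside a DiffBind region of 1601 bp. It fell between 2 CpG islands, 3.58 kb from the island of the start and 4.09 kb from the downstream island whose sequence is given above. The downstream island held 8 copies of TGCCGC, the most of the 29 islands, and no region.

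The other 5 genes differed in how far the mark lay from them. PLAGL1, a zinc finger transcription factor, had the nearest RS peak 23.6 kb from its window. For PEG10, derived from a retrotransposon, for NAP1L5, a retrogene inside an intron of HERC3, and for GNAS, which encodes a G protein subunit from several imprinted promoters, this distance was 58.2, 58.0 and 58.4 kb. For MEST, a hydrolase-fold gene expressed from the paternal copy, it was 103.4 kb, while a PRO peak lay closer, at 40.4 kb. The nearest DiffBind region was 15.02 kb away for NAP1L5 and 23.04 kb or more for PEG10, GNAS, PLAGL1 and MEST.

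The CpG islands of these genes overlapped a region at H19 only. Control regions lie in some of these islands, and not every island called is one. The islands were called from the genome as merged 500-bp windows with at least 55% GC and CpG observed/expected of at least 0.65. The 10 windows held 29 such islands over 39.4 kb. Each gene had at least 1 island that held a transcript start, 17 in all, and none of these 17 overlapped a PRO peak, an RS peak or a DiffBind region. Over all 37954 islands of the genome, with or without a start, 1.59% overlapped a PRO peak, 6.33% an RS peak and 4.2% a DiffBind region. At shares this low, 0 of 17 is a count that does not set these islands apart. Of all 29, 1 overlapped an RS peak and 2 a DiffBind region, both at H19. Its island at chr11:2023032-2023561 had 370 bp in an RS peak, and that island and the one at chr11:2020863-2021392 lay in the DiffBind region.

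TGCCGC was present in 17 of the 29 islands, with 63 copies in all. It was also present in 6 of the 17 RS peaks (35.3%), against 13.8% of all RS peaks, and in 3 of the 7 DiffBind regions (42.9%), against 21.2% of all. The 3 H19 peaks made up 3 of these 6, and without H19 the share was 3 of 14 (21.4%) for RS peaks and 1 of 5 (20%) for DiffBind regions, the latter below the share of the whole list. Longer peaks hold more hexamers by their length, and the median length was 1001 bp for the 17 peaks and 801 bp for all RS peaks, and 2001 bp for the 7 DiffBind regions and 1601 bp for the whole DiffBind list.

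The median CpG observed/expected was 0.278 in the 17 RS peaks, 0.242 without the 3 H19 peaks and 0.201 in all RS peaks. KCNQ1OT1 held both the lowest value, 0.0703, and the highest, 0.533. In the 7 DiffBind regions the median was 0.208, against 0.211 in the whole list.

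**Figure D5:**
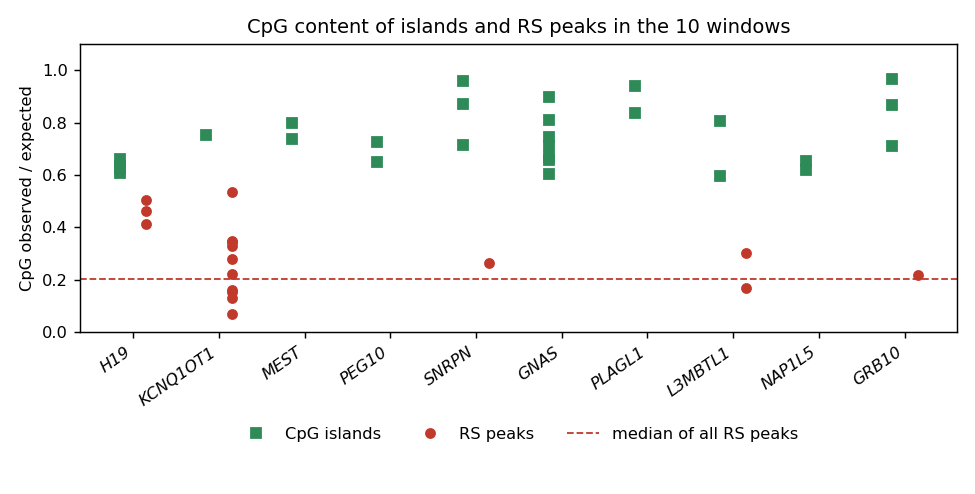
CpG observed/expected of each CpG island and each RS peak in the 10 windows, by gene, with the median of all RS peaks (0.201) as a dashed line. Islands were defined by high CpG content, so their higher position is set by definition, and the plot shows the spread of the RS peaks, from 0.0703 to 0.533, around the median.

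A wider list of 78 imprinted genes was set beside the 10, of which 74 were in the annotation. An RS peak lay in the window of 27 (36.5%), a DiffBind region in 20 (27%) and a PRO peak in 8 (10.8%), read against 22%, 18.2% and 3.83% of all genes. Some of these windows share bases with the 10, and over the 65 that do not, the counts were 23, 17 and 8. The list is not matched for gene length, and neighbours in a cluster share peaks. It also holds zinc finger genes, which the study reports among the families most enriched for this mark in senescence. In the PEG3 cluster of chromosome 19, PEG3, ZIM2, USP29, MIMT1 and ZNF264 had an RS peak, and ZIM3 had a PRO peak only. ZNF331 had both, and ZNF597 had neither. What part these genes have in the shares was not tested.

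PRO peaks thus occurred at genes of the wider list though at none of the 10. Whether any of these genes is imprinted in IMR90 was not examined. With PRO shares of 10.8% in the wider list and 3.83% of all genes, 0 of 10 does not set the 10 genes apart. The 8 genes were KLF14, UBE3A, ZIM3, IGF2R, ZNF331, RB1, DLGAP2 and NTM, with 0.201 kb (IGF2R) to 5.20 kb (DLGAP2) of the window in PRO peaks. UBE3A, the ubiquitin ligase gene of the Angelman syndrome, ZIM3, a KRAB zinc finger gene, and IGF2R, a receptor that clears IGF2, had a PRO peak and no RS peak. KLF14, a transcription factor gene of the MEST cluster, carried the mark in both states beside its start. Its PRO peak of 1001 bp at chr7:130417801-130418801 and its RS peak of 2001 bp at chr7:130416801-130418801 both began 0.166 kb downstream of the start, with CpG observed/expected of 0.890 and 0.688, and no DiffBind region was listed there. At RB1, a tumour suppressor gene, the PRO peak at chr13:49001201-49002601 lay inside an RS peak that began 200 bp earlier. Both lay in an intron, in a stretch shared with the gene LPAR6. The PRO peak was 123.3 to 124.7 kb downstream of the commonest RB1 start, with CpG observed/expected of 0.326. Its place relative to the imprinted island of RB1 was not examined.

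The most RS-covered windows of the wider list were SNHG14 with 75.6 kb, DLGAP2 with 44.4 kb, KCNQ1 with 22.8 kb, NTM with 12.8 kb and PWRN1 with 10.0 kb. ZIM2, ZNF331, TRAPPC9, RB1 and PEG3 followed with 7.01, 6.93, 6.61, 5.61 and 5.60 kb. As a share of the window the order differed, and the genes of the wider list above H19 (19.7%) were USP29 with 28.7%, NPAP1 with 22.2% and KLF14 with 20.0%, all in windows of 19.5 kb or less. USP29, NPAP1 and MIMT1, which had 15.8%, are named after their values were seen. PEG3, a paternally expressed zinc finger gene, had 14.2% and SNHG14 16.8%, beside the 16.2% of KCNQ1OT1, whereas DLGAP2 and NTM, which had longer windows than all of these genes, had 4.56% and 1.32%.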

How the data were processed

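Per the labels and the study's methods, single-end reads were trimmed (Trim Galore 0.3.0 after CASAVA 1.8.2), aligned to hg19 with Bowtie2 2.1.0 and cleared of duplicates (Picard 1.98). SICER 1.1 called domains in 200-bp windows with gaps of 200 bp against total histone H4, and DiffBind 1.8.3 listed differential regions. Versions are from the submitters' processing notes. The authors deposited 3 lists whose only values are the start and end of each region in bases (a position, in no expression unit), with both antibodies merged. Peaks were overlapped with GENCODE release 44 genes lifted to hg19 with 1 base as the minimum, and CpG content, motifs, islands and 75-base copies were read from GRCh37 (Python 3.11.15, NumPy 2.4.6, pysam 0.24.0). The functions were tested on simulated data. Motif matches covered both strands. All 10 genes were described with every region. Of the wider list, each gene with a PRO peak and the 10 with the most RS bases were named. The genes and lists were chosen with earlier results of these data known. No test was run, because each state has 1 merged list.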

Additional observations from a re-analysis of the deposited data

How the results depend on the processing

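The counts and covered lengths were recomputed under 9 other settings, which gave 90 values for 10 results, and 83 stayed within 1.5-fold of the value reported. With only the 5 kb on either side of transcript starts, 3 of the 10 genes had an RS peak, RS peaks covered 5.72 kb and DiffBind regions 8.90 kb, since the regions in the bodies of KCNQ1OT1, SNRPN (RS only) and the end of L3MBTL1 drop out by construction. Under that setting the wider list had 4 genes with a PRO peak, 17 with an RS peak and 11 with a DiffBind region. With peaks of at least 1000 bp only, 4 genes of the wider list had a PRO peak. The count of the 10 genes with a PRO peak was 0 under every setting run, so a median CpG content of PRO peaks could not be given. RefSeq gene models were not used as an alternative here, because the table at hand was of another build. No paired analysis was possible because each state has 1 merged list with no value per sample, and leaving out a sample could not be run for the same reason. The lists carry no counts, and the library totals the study gives were not used here, so depth was not weighed against the absence of a peak.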
